A study of Mus musculus with 6 samples.

Results

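The 9 genes described here mark brown and beige fat, the thermogenic forms of adipose tissue, and were examined in C3H10T1/2 cells, a mouse mesenchymal stem cell line with the potential to become bone, fat or muscle. They are Cox8b, Slc36a2, Cidea, Ucp1, Ppargc1a, Prdm16, Dio2, Elovl3 and Ebf2, and all 9 were matched by Ensembl gene ID in a count table of 55401 genes, of which 29043 had at least 1 count. They were chosen by measured values: a higher level of Cox8b and Slc36a2 at day 7 than at day 0 in shControl cells had already been seen when the list was drawn up. The values of that contrast are therefore given as a description, with no test.

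RNA-seq libraries were prepared from 3 lines of these cells, which expressed short hairpin RNAs. The shControl line carried a control hairpin, the shNFIB line a hairpin against Nfib, and the shMLL1 line a hairpin against Kmt2a, which encodes the histone methyltransferase MLL1. Each was sampled at confluence, called day 0, and again on day 7 of osteogenic culture, in which the cells received β-glycerophosphate at 20 mM, ascorbic acid 2-phosphate at 100 µg/ml and dexamethasone at 0.1 µM. The adipogenic induction medium was not used for these samples. With 6 conditions and 6 libraries, each condition has 1 library, so no spread between cultures of the same condition can be estimated.

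Brown and beige adipocytes dissipate chemical energy as heat, chiefly through the mitochondrial uncoupling protein encoded by Ucp1. Their identity rests on transcription factors such as PRDM16 and EBF2, and their mitochondrial content on the coactivator encoded by Ppargc1a. The remaining markers encode a respiratory chain subunit, a transporter, and enzymes or lipid droplet proteins that are abundant in thermogenic fat, and some of them are also used in muscle.

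Library totals ranged from 21608680 to 34774066 counts. Levels are given as CPM, the count divided by the library size in megacounts, where library sizes carry a TMM factor (trimmed mean of M-values). A count of 0 allows up to 3 counts, which is 0.0939 to 0.123 CPM depending on the library. Nfib had 3715 and 2546 counts at day 0 and day 7 in shControl cells, 1115 and 241 in shNFIB cells, and 1976 and 1774 in shMLL1 cells. Its level in shNFIB cells was 3.29-fold lower than in shControl cells at day 0 and 10.2-fold lower at day 7. Kmt2a had 2387 and 2022 counts in shControl cells, 2731 and 2780 in shNFIB cells, and 933 and 850 in shMLL1 cells, where its level was 2.42-fold and 1.90-fold lower than in shControl cells. Each hairpin target was thus lowest in the line named for it. Of the mesenchymal markers, Vim had at least 28703 counts in every library, whereas Nt5e had 1 to 6. The osteoblast marker Runx2 was at 1047 counts at day 0 and 3561 at day 7 in shControl cells. It had 993 and 898 counts in shNFIB cells and 972 and 862 in shMLL1 cells. Another osteoblast marker, Ibsp, had 0 counts in every library. Alpl had 7 and 111 counts in shControl, 8 and 215 in shNFIB, and 0 and 2 in shMLL1 cells. In the same order Dlx5 had 408 and 1601, 140 and 109, and 122 and 388 counts. Spp1 had 6930 and 42101, 6843 and 6682, and 6771 and 7406. Higher counts of osteoblast markers at day 7 were thus not confined to shControl cells.

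The start regions of 3 members are shown because Cox8b and Ppargc1a are the members with a sequence at hand that reached 10 counts and were higher at day 7, and Ucp1 is the gene that defines thermogenic fat. Each line gives the 250 bases upstream of the RefSeq start (GRCm38.p6), written 5′ to 3′ on the strand of the gene, with motif matches in capitals.
Cox8b, chr7:140900447-140900696, minus strand: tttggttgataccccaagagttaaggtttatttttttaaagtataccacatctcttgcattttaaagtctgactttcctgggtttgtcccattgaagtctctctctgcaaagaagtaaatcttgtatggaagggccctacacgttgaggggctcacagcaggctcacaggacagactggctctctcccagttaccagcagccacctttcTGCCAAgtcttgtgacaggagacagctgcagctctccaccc
Ppargc1a, chr5:51567726-51567975, minus strand: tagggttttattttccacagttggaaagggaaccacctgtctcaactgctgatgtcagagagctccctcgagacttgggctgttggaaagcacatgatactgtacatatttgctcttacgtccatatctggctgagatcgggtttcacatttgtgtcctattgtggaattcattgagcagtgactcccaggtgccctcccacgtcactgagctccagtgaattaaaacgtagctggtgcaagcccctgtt
Ucp1, chr8:83290098-83290347, plus strand: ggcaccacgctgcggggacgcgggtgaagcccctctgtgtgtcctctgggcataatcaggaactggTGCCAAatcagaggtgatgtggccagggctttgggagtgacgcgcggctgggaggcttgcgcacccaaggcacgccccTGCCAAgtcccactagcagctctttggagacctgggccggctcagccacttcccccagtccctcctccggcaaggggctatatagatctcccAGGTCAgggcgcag

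These windows were searched on both strands for the NFI recognition arm TTGGCA, the cyclic AMP response element TGACGTCA, the nuclear receptor arm AGGTCA, the glucocorticoid receptor arm TGTTCT, the TATA box TATAAA and the GC box GGGCGG. The Cox8b window held 1 NFI arm on the opposite strand, where it reads TGCCAA, 41 to 36 bases before the start. The Ucp1 window held 2 NFI arms, at 184 to 179 and 106 to 101 bases before the start, and 1 nuclear receptor arm at 14 to 9 bases. None of these 6 motifs was found as an exact match in the Ppargc1a window, and single arms of the cyclic AMP response element were not searched. NFI arms occurred in 12.3% of 32851 promoter windows of this length, and nuclear receptor arms in 14.0%, so the presence of such a match is common. Start regions of 5 of the 9 members were at hand, and the other two of these held a GC box (Prdm16) and a cyclic AMP response element with a TATA box (Dio2). These elements occurred in 32.7%, 1.55% and 12.4% of all windows, respectively. No motif in these windows overlapped another.

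The members fell into 2 groups by abundance. Cox8b, Slc36a2, Ppargc1a and Ebf2 had at least 10 counts in some library, and 2 of them, Ppargc1a and Ebf2, had at least 10 in every library. The 5 other members, Cidea, Ucp1, Prdm16, Dio2 and Elovl3, stayed under 10 counts everywhere and held 18 counts between them. Ucp1 and Prdm16, which define thermogenic fat, were therefore below the detection limit in every library of these osteogenic cultures.

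**Figure D1:**
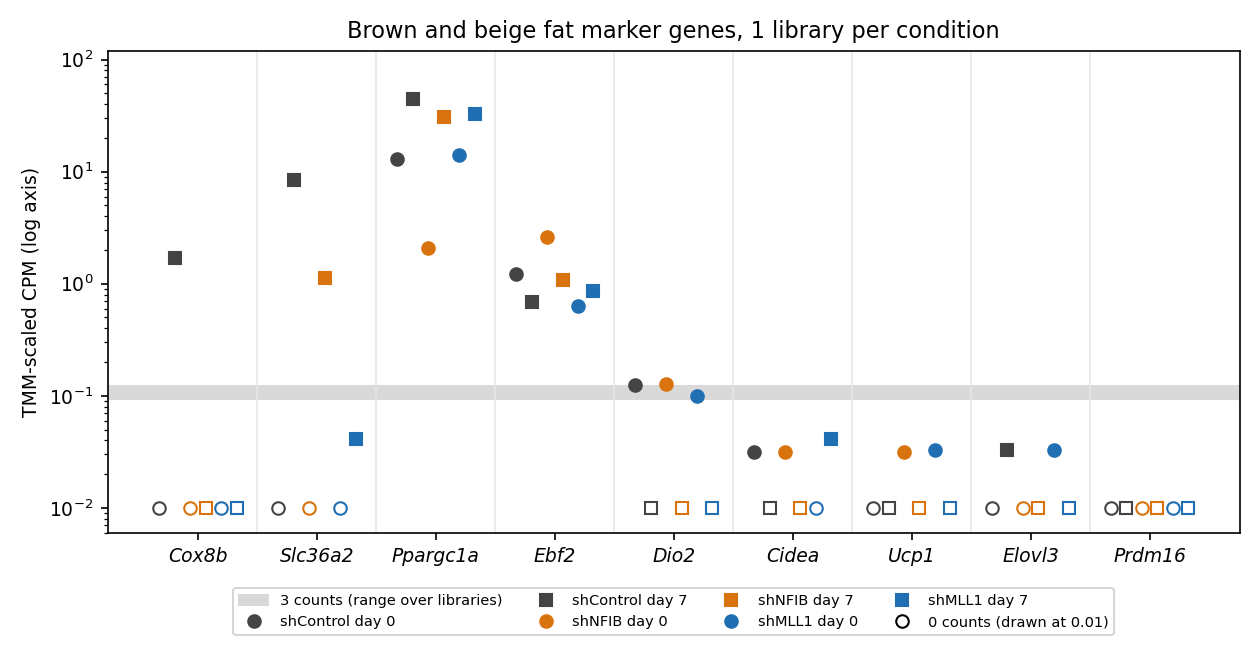
TMM-scaled CPM (log axis) of the 9 members in the 6 libraries, with circles for day 0, squares for day 7 and a grey band for the level of 3 counts. Ppargc1a lies between 2.09 and 44.3 CPM in all 6 libraries, Cox8b has counts in shControl cells at day 7 alone, and 5 members lie near or under the band in every library.

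Ucp1 (ENSMUSG00000031710, chr8:83290352-83298452 in GRCm38, plus strand) encodes the uncoupling protein of brown fat mitochondria. It had 1 count in shNFIB cells at day 0, 1 in shMLL1 cells at day 0, and 0 in the 4 other libraries, so it was not detectable as expressed at this depth. Prdm16 (ENSMUSG00000039410, chr4:154316125-154636873, minus strand), which encodes a zinc finger protein that drives brown fat fate, had 0 counts in all 6 libraries. Its paralog Mecom had 1194 to 4141 counts. Cidea (ENSMUSG00000024526, chr18:67343604-67367785, plus strand) encodes a lipid droplet protein and had 1 count in shControl cells and 1 in shNFIB cells at day 0, 1 in shMLL1 cells at day 7, and 0 elsewhere.

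Dio2 (ENSMUSG00000007682, chr12:90724552-90738438, minus strand) encodes the deiodinase that makes active thyroid hormone within the cell. It had 4 counts in shControl cells, 4 in shNFIB cells and 3 in shMLL1 cells at day 0, and 0 in each line at day 7. All of its counts thus came from day 0, but at 3 or 4 counts per library no fold against a library at 0 can be read. Elovl3 (ENSMUSG00000038754, chr19:46131897-46135694, plus strand), which encodes a fatty acid elongase, had 1 count in shControl cells at day 7, 1 in shMLL1 cells at day 0 and 0 elsewhere. Over the 5 scarce members, 16 of the 18 counts were at day 0 and 2 at day 7, and Dio2 gave most of the former.

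Cox8b (ENSMUSG00000025488, chr7:140898945-140900446, minus strand, 360 exon bases) encodes a small subunit of cytochrome c oxidase that is used in heart, muscle and brown fat. It had 52 counts, or 1.71 CPM, in shControl cells at day 7 and 0 counts in each of the 5 other libraries. All reads of this gene therefore came from a single library. In such bulk samples fewer cells of a type and less RNA per cell cannot be told apart. Set against the limit of 3 counts, the level in that library was at least 18.2-fold higher than in shControl cells at day 0, at least 16.8-fold higher than in shNFIB cells at day 7 and at least 13.9-fold higher than in shMLL1 cells at day 7. These bounds take the 52 counts as exact. No annotated gene overlaps Cox8b.

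The common isoform of this subunit is encoded by Cox8a, which had 8223 and 6433 counts at day 0 and day 7 in shControl cells, 6675 and 4310 in shNFIB cells, and 9709 and 3565 in shMLL1 cells. Per kilobase of exon, Cox8b reached 4.74 CPM in shControl cells at day 7 and Cox8a 341 CPM, so the common isoform remained far more abundant where Cox8b was highest. Cox8c had 0 counts throughout. The other muscle and heart isoforms of the complex did not share the pattern of Cox8b. Cox6a2 had 136 counts at day 0 and 0 at day 7 in shControl cells, 82 and 8 in shNFIB cells, and 286 and 1 in shMLL1 cells. It was thus lower at day 7 in every line, by at least 43.3-fold in shControl cells and 9.60-fold (95% counting interval 4.65 to 23.0) in shNFIB cells. Cox7a1 had 5 and 14, 7 and 7, and 17 and 24 counts in the same order. Its level did not pass 1 CPM in any library. The common isoforms Cox6a1 and Cox7a2, and the related gene Cox7a2l, had between 1654 and 6574 counts.

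Slc36a2 (ENSMUSG00000020264, chr11:55158470-55185077, minus strand, 3255 exon bases) encodes a proton-coupled transporter of small amino acids that lies on the surface of brown adipocytes. It had 259 counts (8.50 CPM) in shControl cells at day 7, 33 counts in shNFIB cells at day 7 and 1 count in shMLL1 cells at day 7, with 0 counts in all 3 lines at day 0. Every count but 1 thus came from the shControl and shNFIB libraries at day 7. The level at day 7 was at least 90.5-fold higher than at day 0 in shControl cells and at least 11.8-fold higher in shNFIB cells. Both bounds take the count at day 7 as exact. In shMLL1 cells both days were at or under the limit of detection, and no fold is given.

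At day 7, Slc36a2 was 7.61-fold lower in shNFIB cells than in shControl cells, which is -2.93 on the log2 scale with a counting interval of -3.50 to -2.40. In shMLL1 cells it was 207-fold lower than in shControl cells, with a counting interval of 36.9 to 8220 that reflects the single count. It was 27.2-fold lower in shMLL1 than in shNFIB cells, or -4.77 on the log2 scale, with an interval of -10.11 to -2.19. The ratios to shControl cells rest on the shControl value that led to the choice of this gene and are a description only, and each ratio to shMLL1 cells rests on 1 count. Slc36a2 passed the filter on low counts in the fits on 6 libraries, which include that shControl library, and was filtered out where the shNFIB and shMLL1 libraries were fitted alone, so no test of it is given. Within the SLC36 family, Slc36a1 had 961 to 1783 counts, Slc36a4 had 832 to 2162 and Slc36a3 had 0 to 2. No annotated gene overlaps Slc36a2.

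Ppargc1a (ENSMUSG00000029167, chr5:51454250-51567726, minus strand, 6592 exon bases) encodes the coactivator that promotes mitochondrial biogenesis and is induced by cold in brown fat. It had the highest CPM of the members in 5 of the 6 libraries, and in shNFIB cells at day 0 Ebf2 was above it. At day 0 it had 414 counts (13.0 CPM) in shControl cells, 66 (2.09 CPM) in shNFIB cells and 424 (14.0 CPM) in shMLL1 cells. At day 7 it had 1349 counts (44.3 CPM), 903 (30.5 CPM) and 791 (32.4 CPM), respectively. The 3 libraries at day 7 were all above the 3 at day 0, and the shNFIB library at day 0 stood lowest.

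In order of level, shControl cells at day 7 were followed by shMLL1 and shNFIB cells at day 7, then shMLL1 and shControl cells at day 0, and last shNFIB cells at day 0. The shMLL1 and shNFIB levels at day 7 did not differ beyond counting error (ratio 1.06, 0.963 to 1.17), nor did the shMLL1 and shControl levels at day 0 (ratio 1.08, 0.944 to 1.24). The other neighbours in that order differed beyond it. Among protein-coding genes detected in the same library, the share with a lower CPM per kilobase than Ppargc1a was 35.3% at day 0 and 61.0% at day 7 in shControl cells, 22.7% and 49.1% in shNFIB cells, and 38.7% and 53.8% in shMLL1 cells. Its place among the expressed genes was thus higher at day 7 in each line.

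Day 7 exceeded day 0 for Ppargc1a by 1.77 on the log2 scale in shControl cells (1.61 to 1.93), 3.87 in shNFIB cells (3.51 to 4.25) and 1.21 in shMLL1 cells (1.03 to 1.38), which are 3.41-fold, 14.6-fold and 2.31-fold. The ratio in shNFIB cells was larger than that in shControl cells by 2.10 on the log2 scale (1.70 to 2.49) and larger than that in shMLL1 cells by 2.66 (2.26 to 3.06). The ratio in shMLL1 cells was smaller than that in shControl cells, by a log2 difference of -0.57 (-0.80 to -0.33). These intervals cover counting error alone and rest on 1 library per condition. The larger ratio in shNFIB cells went with a low level at day 0, where Ppargc1a was 6.20-fold below shControl cells, whereas at day 7 it was -0.53 from shControl cells on the log2 scale (-0.66 to -0.41), within 2-fold.

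The day effect was tested in the shNFIB and shMLL1 lines alone, with the line as a block, since the shControl libraries had guided the choice of members. In edgeR's quasi-likelihood test Ppargc1a rose by 2.45 on the log2 scale (SE 0.65, adjusted p = 0.0473), and it was higher at day 7 in 2 of 2 lines. Without the replicate block, that is, without the pairing of both days by line, edgeR's quasi-likelihood test gave 1.88 and an adjusted p of 0.183, so the call depends on the pairing. In this fit 6.09% of the 15867 genes tested rose and 6.78% fell. Of the 9 members 2 passed the filter on low counts, and 1 of them rose. Ebf2 was at -0.50 (SE 0.65, adjusted p = 0.629 in edgeR's quasi-likelihood test).

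The relatives of Ppargc1a showed no such difference. Ppargc1b, which encodes a related coactivator, had 86 and 68 counts in shControl cells, 45 and 59 in shNFIB cells, and 107 and 70 in shMLL1 cells. Pprc1, the third gene of the family, had 1153 to 2840 counts and shares 177 exon bases with Ldb1 on the opposite strand, so its counts are uncertain. In edgeR's quasi-likelihood test of the day effect Ppargc1b was at 0.03 (SE 0.53, adjusted p = 0.971).

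Ebf2 (ENSMUSG00000022053, chr14:67233292-67430918, plus strand, 6928 exon bases) encodes a transcription factor of brown fat precursors. It had 39 counts (1.22 CPM) at day 0 and 21 (0.689 CPM) at day 7 in shControl cells, 82 (2.60 CPM) and 32 (1.08 CPM) in shNFIB cells, and 19 (0.630 CPM) and 21 (0.861 CPM) in shMLL1 cells. The shNFIB library at day 0 was the highest, 2.13-fold (1.44 to 3.20) above the next, and no neighbours in the order of the 5 other libraries differed beyond counting error. Antisense gene Gm10860 shares 424 exon bases with Ebf2 but had 0 counts.

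For Ebf2 the log2 ratio of day 7 to day 0 was -0.83 in shControl cells (-1.67 to -0.02), -1.26 in shNFIB cells (-1.90 to -0.66) and 0.45 in shMLL1 cells (-0.52 to 1.43). The ratio was past 2-fold in shNFIB cells alone. At day 0 the log2 difference from shControl cells was 1.09 in shNFIB cells (0.52 to 1.68) and -0.96 in shMLL1 cells (-1.83 to -0.13), and the shMLL1 cells were at -2.04 relative to shNFIB cells (-2.85 to -1.31). Neither the ratio between days in shNFIB cells nor the excess of shNFIB over shControl cells at day 0 was called by edgeR's exact test at an assumed biological coefficient of variation of 0.2. The latter was also lost when counts were scaled by library size alone. The relatives Ebf1 and Ebf3 were far more abundant, with 312 to 2795 and 634 to 1599 counts. Ebf1 had 312 counts at day 0 and 1766 at day 7 in shMLL1 cells, 7.00-fold higher at day 7 (6.20 to 7.92), and was within 2-fold between days in the other lines.

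**Figure D2:**
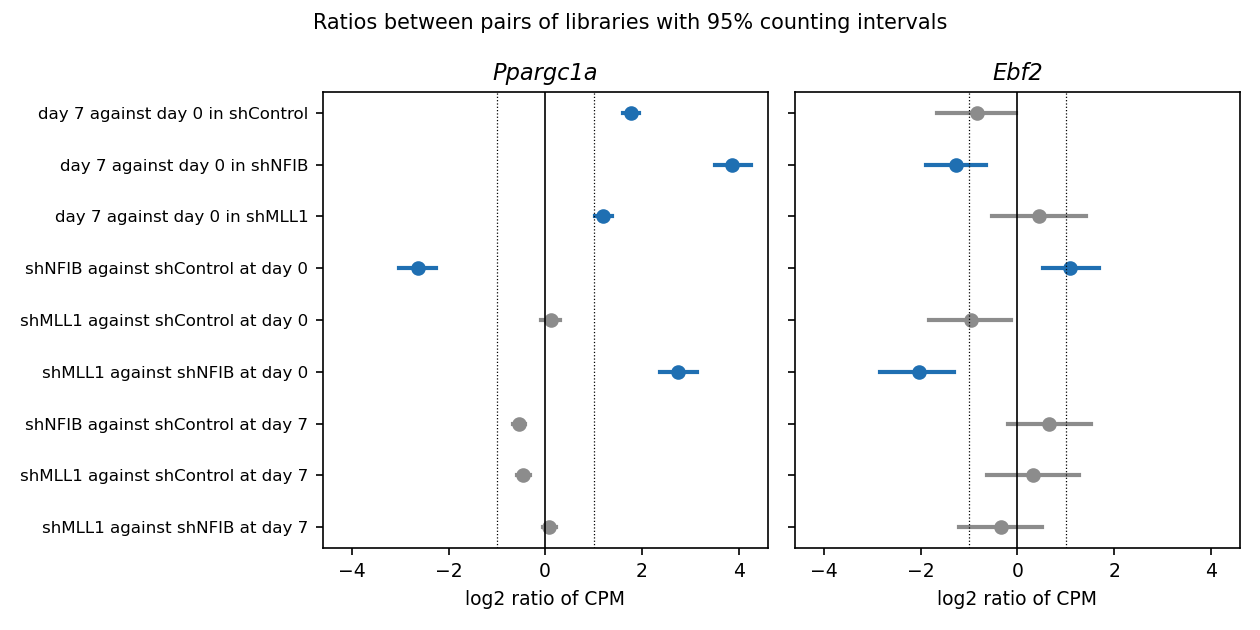
Log2 ratios of CPM for Ppargc1a and Ebf2 between pairs of libraries, with 95% counting intervals as bars, dotted lines at 2-fold, and blue where the ratio was called. All 3 ratios of day 7 to day 0 were called higher for Ppargc1a, the one in shNFIB cells being 3.87, while Ebf2 was called lower at day 7 in shNFIB cells alone, at -1.26.

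A ratio between libraries was called where it was over 2-fold, at least 1 of the libraries had 10 counts and the counting interval excluded no change. Between day 0 and day 7, 3 of the 4 measured members were called higher in shControl cells (Cox8b, Slc36a2 and Ppargc1a) and 0 lower. Over all genes measured, 21.7% were called higher and 14.3% lower in that contrast, which is the one that guided the choice. In shNFIB cells 2 of 3 measured members were called higher (Slc36a2 and Ppargc1a) and 1 lower (Ebf2), against 15.3% and 13.1% of all genes. In shMLL1 cells 1 of 2 was called higher (Ppargc1a), against 24.7% of all genes higher and 18.9% lower. With so few members measured, these counts stand only as a tally of the values above.

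Between lines at day 0, 2 members were measured. In shNFIB relative to shControl cells Ebf2 was called higher and Ppargc1a lower, where 6.28% and 5.5% of all genes were called. In shMLL1 relative to shControl cells neither was called, where 9.95% of all genes were higher and 8.47% lower. In shMLL1 relative to shNFIB cells Ppargc1a was called higher, 6.72-fold, and Ebf2 lower, where 11.8% and 11.9% of all genes were called.

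At day 7 the calls between lines fell on Cox8b and Slc36a2. Both were called lower in shNFIB and in shMLL1 cells than in shControl cells, 2 of 4 measured members each time. Of all genes, 11.7% were called lower and 7.31% higher in the former contrast, and 5.88% lower and 7.61% higher in the latter. These contrasts share the shControl library in which both genes were seen to be high. In shMLL1 relative to shNFIB cells, 1 of 3 measured members was called lower (Slc36a2), where 8.46% of all genes were lower and 13.5% higher.

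Over both days, 3 members passed the filter on low counts in the fits on all 6 libraries with day as a covariate, and Ppargc1a and Ebf2 are reported. In edgeR's quasi-likelihood test the log2 difference of Ppargc1a was -1.34 (SE 0.58, adjusted p = 0.409) in shNFIB relative to shControl cells, -0.10 (SE 0.56, adjusted p = 0.978) in shMLL1 relative to shControl cells, and 1.24 (SE 0.59, adjusted p = 0.298) in shMLL1 relative to shNFIB cells. For Ebf2 it was 0.91 (SE 0.58, adjusted p = 0.558), -0.27 (SE 0.60, adjusted p = 0.939) and -1.18 (SE 0.60, adjusted p = 0.321) in edgeR's quasi-likelihood test. None of these passed edgeR's threshold, and 0 of them were under 0.05 without adjustment. DESeq2 called none of them after adjustment either, while without adjustment the differences of Ppargc1a between shNFIB and shControl cells and between shMLL1 and shNFIB cells were under 0.05. The share of all genes called by edgeR was 0.378%, 0.03% and 0.48% in these 3 contrasts. A difference that changes with the day, such as that of Ppargc1a between shNFIB and shControl cells, adds to the error of these fits.

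Markers of fat in general stood beside Cox8b and Slc36a2. The summed level of the 8 adipocyte markers was 58.3 CPM at day 0 and 208 CPM at day 7 in shControl cells. It was 72.6 and 107 CPM in shNFIB cells, and 24.6 and 52.9 CPM in shMLL1 cells. Of these sums Pparg gave 27.1 and 42.0 CPM in shControl, 52.2 and 84.2 in shNFIB, and 12.0 and 20.9 in shMLL1 cells. In shControl cells 4 of the 7 measured were called higher at day 7 (Plin1, Lpl, Cfd and Lipe) and 0 lower, where 21.7% of all genes were called higher and 14.3% lower. Plin1, which encodes the lipid droplet coat protein perilipin, had 0 counts at day 0 in every line and 472, 9 and 28 counts at day 7 in shControl, shNFIB and shMLL1 cells. Cfd, the gene of the secreted protease adipsin, had 0 at day 0 and 2129, 22 and 45 at day 7. Lpl, the gene of lipoprotein lipase, had 6, 7 and 0 counts at day 0 and 1084, 22 and 4 at day 7. The library with the most Cox8b and Slc36a2 thus also had the most of these 3 markers, and of Lipe, the hormone-sensitive lipase gene, with 909 counts. However, the knockdown lines were ordered otherwise: Slc36a2 and Lpl were higher in shNFIB than in shMLL1 cells at day 7, and Plin1 and Cfd were lower.

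Other markers on the adipocyte list had other patterns. Cebpa, an early adipogenic factor gene, had 608 counts at day 0 and 313 at day 7 in shControl cells, 232 and 119 in shNFIB cells, and 78 and 60 in shMLL1 cells, and was thus highest in shControl cells at day 0. Adipoq, which encodes adiponectin and defines mature adipocytes, had 1 count in shControl and shMLL1 cells at day 0 and 0 elsewhere, and Fabp4 had 108 to 148 counts in every library. Pparg, the master regulator of fat formation, was highest in shNFIB cells, with 1647 and 2489 counts, against 867 and 1279 in shControl cells and 362 and 509 in shMLL1 cells. Some fat genes outside that list were highest in the same library as Cox8b and Slc36a2. Of the white fat genes, Retn had 117 counts and Lep 20 in shControl cells at day 7, and the 5 other libraries had 0 for Retn and 0 to 3 for Lep. The paralog of Cidea that is used in white fat, Cidec, had 681 counts in shControl cells at day 7, 5 in shNFIB cells and 17 in shMLL1 cells at day 7, and 0 at day 0. The part of fat-like cells in the levels of Cox8b and Slc36a2 was not tested. Of the 8 skeletal muscle markers, Ckm and Myh1 had 0 counts in every library and Myod1 0 to 2, with a summed level of 0.372 to 5.51 CPM for the list. Acta1 had 67 and 1 counts at day 0 and day 7 in shControl cells. It had 41 and 0 in shNFIB cells, and 18 and 2 in shMLL1 cells. In the same order Des had 84 and 33, 30 and 3, and 12 and 18 counts. Tnnt3 had 22 and 15, 5 and 8, and 13 and 20.

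**Figure D3:**
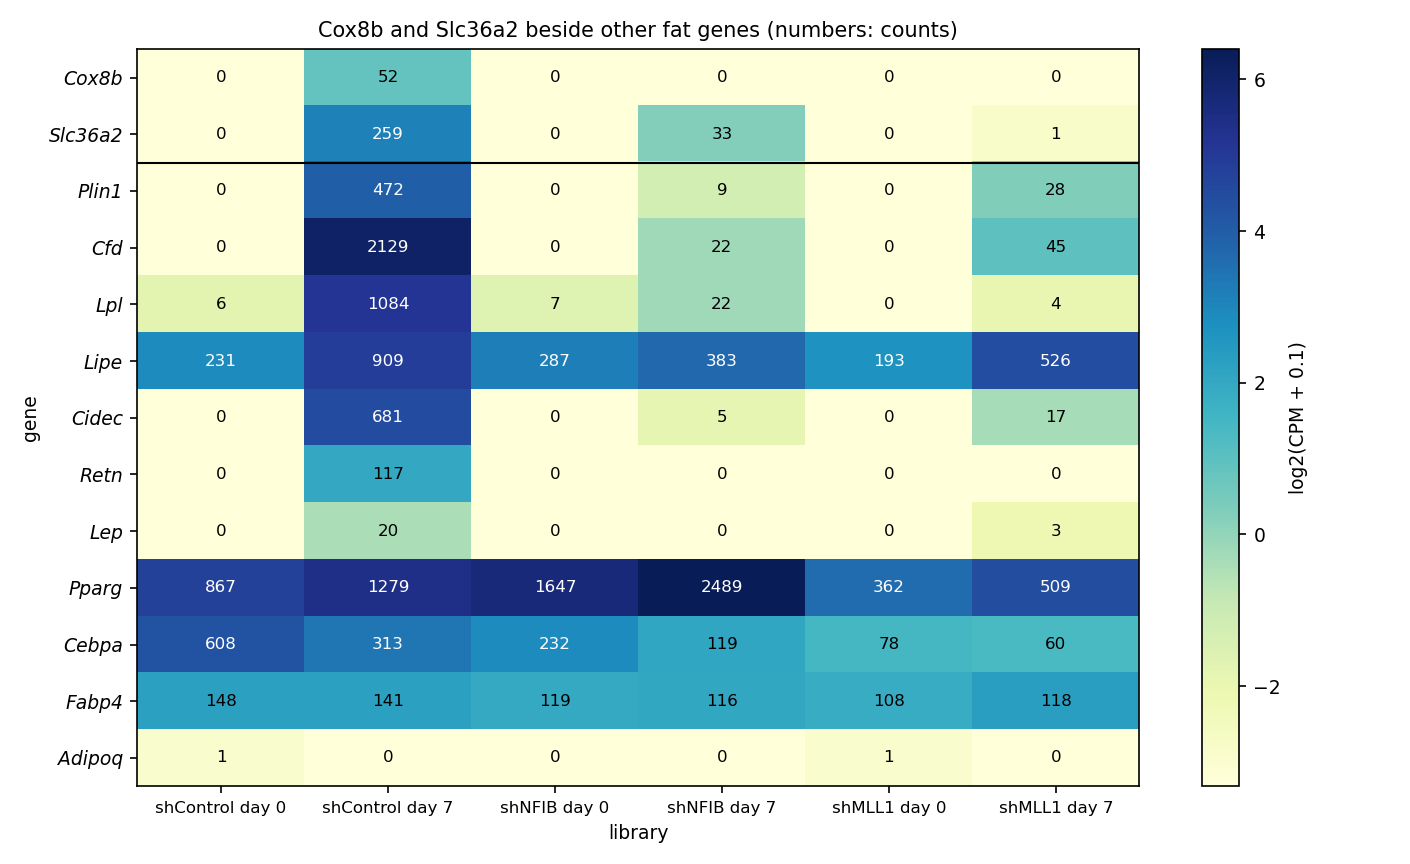
Counts (numbers) and log2(CPM + 0.1) (colour) of Cox8b, Slc36a2 and other fat genes in the 6 libraries. The shControl library at day 7 holds 52 counts of Cox8b, 259 of Slc36a2 and 2129 of Cfd, whereas Fabp4 stays between 108 and 148 counts and Adipoq at 0 or 1.

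The relatives of the scarce members filled in part of their families, as a set of paralogs written down after the members' values had been seen shows. Ucp3 had 21 counts in shControl cells at day 7 and at most 2 elsewhere, and Ucp2 had 16 in that library and at most 4 elsewhere. The related deiodinase genes Dio1 and Dio3 had 0 counts in every library. Of the elongase genes, Elovl1, Elovl5 and Elovl6 had at least 630 counts in every library, Elovl4 and Elovl7 had 33 to 224, and Elovl2 had 0. Elovl1 shares exon bases with Cdc20 on the opposite strand, so its counts are uncertain. Elovl6 was 3.42-fold lower in shNFIB than in shControl cells at day 7 (3.13 to 3.75) and 2.30-fold lower in shMLL1 cells (2.11 to 2.49).

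**Figure D4:**
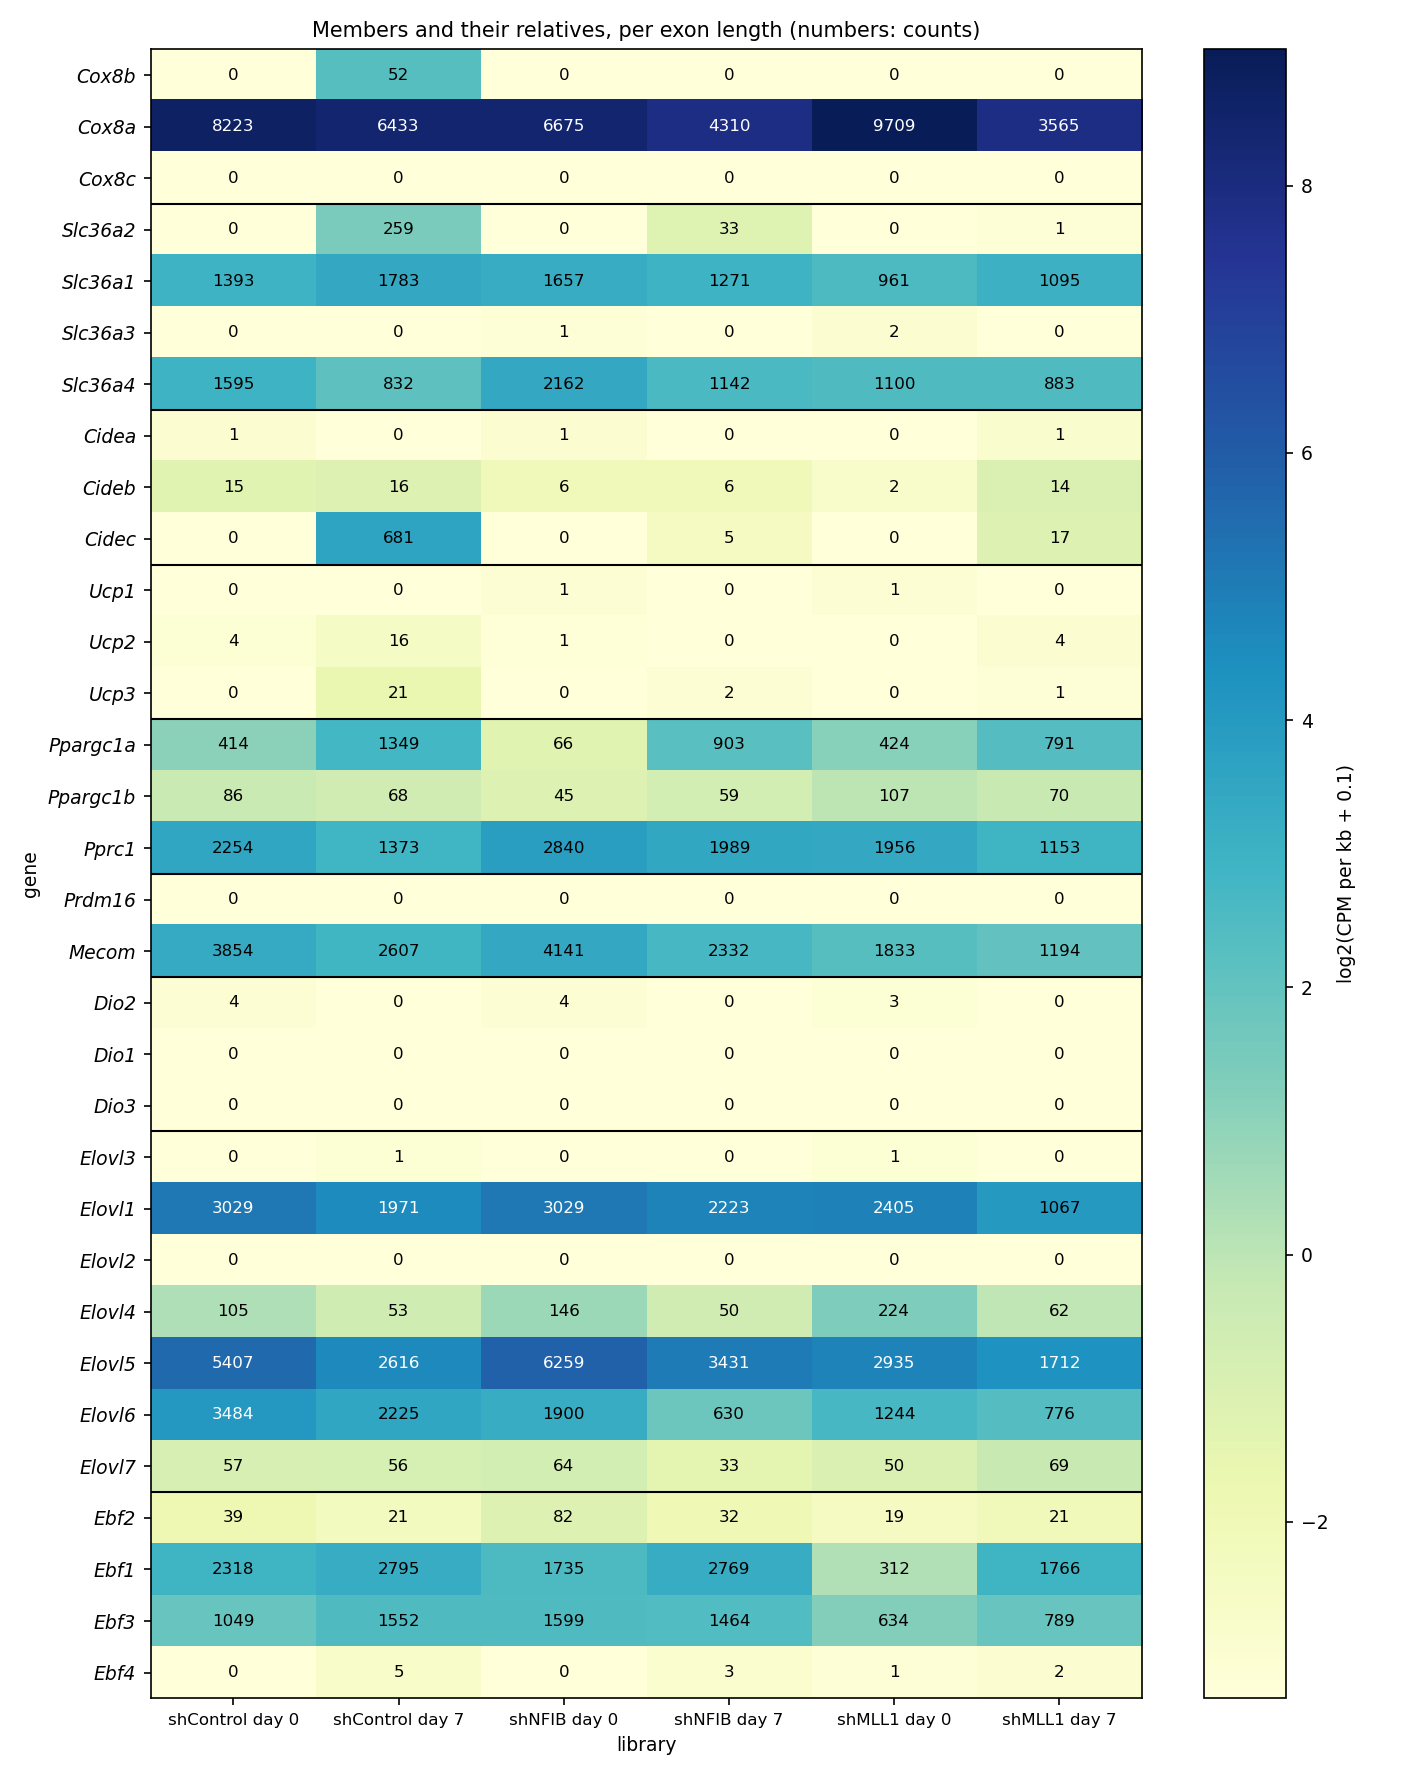
Counts (numbers) and log2(CPM per kilobase of exon + 0.1) (colour) of the 9 members, each first in its block, and their relatives in the 6 libraries. Cox8a, Mecom, Pprc1, Ebf1 and Elovl5 exceed the marker gene of their family in every library, while Dio2, Dio1 and Dio3 are together at or near 0.

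Other genes of thermogenic fat were described from lists by role. Of 19 regulators of the thermogenic programme, 15 were tested for the day effect in the knockdown lines by edgeR's quasi-likelihood test. Of these, 2 rose, Nfia (1.54, SE 0.38, adjusted p = 0.0375) and Nr4a1 (1.46, SE 0.36, adjusted p = 0.0355), and 1 fell, Cebpb (-1.37, SE 0.35, adjusted p = 0.0421). Nfia encodes a paralog of NFIB that acts in brown fat, and its counts were 629 and 918 in shControl cells, 880 and 1558 in shNFIB cells, and 278 and 1081 in shMLL1 cells. Nr4a1 encodes an immediate early nuclear receptor, and Cebpb shares 312 exon bases with Tmem189 on the opposite strand, so that its counts are uncertain. The median log2 change was 0.03 for the list and -0.07 over all genes tested, of which 6.09% rose and 6.78% fell. In shControl cells 1 of 14 measured regulators was called higher (Nr4a1) and 1 lower (Cebpb), where 21.7% and 14.3% of all genes were called. Adrb3, the adrenergic receptor through which fat responds to cold, had at most 1 count in any library.

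Of 7 genes selective for classical brown fat, 3 were tested in the knockdown lines, where 6.09% of all genes rose and 6.78% fell. In edgeR's quasi-likelihood test 1 of the 3 rose. This was Pdk4 (4.89, SE 0.41, adjusted p = 0.000836), which encodes a kinase that shuts pyruvate out of oxidation and is also induced by glucocorticoids. It had 115 and 5243 counts at day 0 and day 7 in shControl cells, 400 and 8190 in shNFIB cells, and 88 and 3103 in shMLL1 cells, and was thus at least 21.9-fold higher at day 7 in each line. The defining brown fat genes Zic1 and Lhx8 had 0 counts throughout.

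Of 8 genes selective for beige fat, 5 were tested, and Tbx1 and Slc27a1 differed between lines. Of all genes tested, 0.03% differed between shMLL1 and shControl cells and 0.48% between shMLL1 and shNFIB cells. Tbx1, which encodes a T-box factor, had 585 and 1454 counts in shControl cells, 662 and 830 in shNFIB cells, and 30 and 66 in shMLL1 cells. Over both days it was lower in shMLL1 than in shControl cells (-4.15, SE 0.37, adjusted p = 0.0397) and than in shNFIB cells (-3.89, SE 0.36, adjusted p = 0.0188) in edgeR's quasi-likelihood test. Slc27a1, a fatty acid transporter gene, had 1136 and 1939 counts in shMLL1 cells against 213 and 566 in shControl cells and 315 and 446 in shNFIB cells, and was higher in shMLL1 than in shNFIB cells (2.14, SE 0.29, adjusted p = 0.0456 in edgeR's quasi-likelihood test). Genes assigned to beige fat therefore differed in opposite directions in the shMLL1 line. Tmem26 had at most 1 count in any library.

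Of 18 thermogenic effectors, 8 were tested for the day effect in the knockdown lines, where 6.09% of all genes rose and 6.78% fell. In edgeR's quasi-likelihood test Ckb, the gene of a creatine kinase, rose (2.88, SE 0.73, adjusted p = 0.0410), and Pank1, which encodes a kinase of coenzyme A synthesis, fell (-1.44, SE 0.38, adjusted p = 0.0440). Ckb had 133 and 249 counts in shControl cells, 35 and 105 in shNFIB cells, and 11 and 180 in shMLL1 cells. In shControl cells 2 of 10 measured effectors were called higher at day 7 (Cpt1b and P2rx5) and 2 lower (Fabp3 and Pank1). Of all genes, 21.7% and 14.3% were called there. Between the days of each line, Cpt1b was called higher and Pank1 lower. Cpt1b had 15 and 56 counts in shControl, 17 and 45 in shNFIB, and 18 and 63 in shMLL1 cells. The genes Kcnk3, Bmp8b, Fgf21, Gatm, Ckmt1 and Ckmt2 had at most 5 counts in any library.

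Of 11 genes selective for white fat, 4 were tested, of which Zfp423 rose (2.79, SE 0.66, adjusted p = 0.0316) and Psat1 fell (-3.89, SE 0.55, adjusted p = 0.00442) at day 7 in the knockdown lines in edgeR's quasi-likelihood test. Zfp423 encodes a factor that restrains the thermogenic programme in white fat, and it had 103 and 244 counts in shControl cells, 42 and 149 in shNFIB cells, and 8 and 103 in shMLL1 cells. Psat1, a serine synthesis gene, had 22080 and 2001 counts in shControl cells, 23392 and 2439 in shNFIB cells, and 37312 and 1304 in shMLL1 cells. Across the isoforms of the respiratory chain 6 of 7 were tested, and Cox6a2 fell (-4.95, SE 1.00, adjusted p = 0.0184 in edgeR's quasi-likelihood test). Of all genes in this fit, 6.09% rose and 6.78% fell.

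The genes most like each measured member were found by Pearson's correlation of log2(CPM + 0.5) over the 6 libraries among 11753 protein-coding genes. For Cox8b these were Cyp2e1 (r = 0.998) and Thrsp (r = 0.996), the latter a regulator of lipid synthesis. Cyp2e1 had 181 counts and Thrsp 251 in shControl cells at day 7, and at most 5 elsewhere. For Slc36a2 they were Igfbp5 (r = 0.994) and Acyp2 (r = 0.977), which unlike Slc36a2 were present at day 0. For Ppargc1a they were Ccdc173 (r = 0.981) and Zfyve19 (r = 0.980), and for Ebf2 they were Rmi1 (r = 0.995) and Crtc3 (r = 0.989), all of which moved over a narrower range. A correlation over 6 libraries from 3 lines is a description: 45, 44, 93 and 287 genes passed r = 0.9 for Cox8b, Slc36a2, Ppargc1a and Ebf2.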

How the data were processed

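RNA-seq counts from 6 libraries of C3H10T1/2 cells were used. Per the authors' methods, adapters were removed with Trimmomatic 0.39, alignment to mm10 used HISAT2 2.2.1, SAMtools 1.12 served for filtering, and HTSeq 0.11.1 gave the reads of each Ensembl gene. The deposited values are these raw counts, without normalization. The annotation release and the strand setting are not given in the sources used here, so genes that overlap on opposite strands cannot be told apart. Positions and exon lengths come from GENCODE M21 on GRCm38.

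The 9 members and all gene lists were chosen with earlier results of these data known. Groups were taken from the sample labels. TMM factors, fits and tests used edgeR 4.0.16 in R 4.3.3 over all genes kept by filterByExpr, with Benjamini-Hochberg adjustment at 0.05. Each SE was derived from the test, as the absolute log2 difference divided by the square root of the quasi-likelihood F statistic. The day effect was fitted to the 4 libraries of the knockdown lines with line as a block (1 residual degree of freedom), and the line effects to all 6 libraries with day as a covariate (2 residual degrees of freedom). Both days of a line come from the same cells, and their deviations from the day means correlated at 0.427 in shControl, 0.429 in shNFIB and 0.274 in shMLL1 over 16660 genes. With line and day both fitted, the error is how unequally a day change repeats between lines, or a line difference between days. No condition had a second culture, so the p-values do not measure the spread between cultures.

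Pairs of libraries were compared by the ratio of CPM with an exact Clopper-Pearson interval at 95%, computed in scipy 1.17.1, and differences of such ratios by the normal approximation to counting error. Reads are not independent molecules, so these intervals and limits describe counting error alone. A library at 0 was set to 3 counts, and folds given as at least a value take the other count as exact. Named genes are the 9 members, the hairpin targets, the genes of each list called or with the largest change, defining markers, respiratory chain isoforms and the 2 likest genes per member. Relatives of the members were added after values were seen. The alternatives were DESeq2 1.42.0, other scalings, no filter, no block, other samples, and for pairs a minimum of 30 counts, the fold alone and an exact test. The day fit called 194 of 200 genes simulated at 4-fold in 16096 genes with a coefficient of variation of 0.2, and 157 at 0.3. The coefficient estimated from the data was 0.326, above both of these settings, and recovery at that value was not tested. The counts of 194 and 157 hold for those settings only and are not the power of the day fit on these data.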

Additional observations from a re-analysis of the deposited data

Results flagged for a closer look

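Sp100, a nuclear body gene that is used as a beige fat marker and is also induced by interferon, differed between days in opposite directions in the knockdown lines. It had 371 counts at day 0 and 1620 at day 7 in shNFIB cells, a log2 ratio of 2.22, and 1992 and 765 in shMLL1 cells, a log2 ratio of -1.07. In shControl cells it had 161 and 272 counts. There was 1 library per condition, and the difference between the lines was not tested.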

How the results depend on the processing

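The number of genes called for the day effect in the knockdown lines was 2043, and it was 3488 with all genes that had at least 1 count, 5556 with all 6 libraries and 995 with no replicate block. The block also decided the call of Ppargc1a, with an adjusted p of 0.183 without it in edgeR's quasi-likelihood test. Under the other alternatives, the fit on all 6 libraries aside, that test or DESeq2 gave 1.08e-07 to 0.0424. The fit on all 6 libraries includes the shControl libraries that guided the choice of members and is not counted here. Leaving out a library of the day fit leaves no residual degree of freedom, and the value is then that of the other line. The line effects gave 63 genes for shNFIB against shControl, 5 for shMLL1 against shControl and 80 for shMLL1 against shNFIB. With all genes these counts were 688, 526 and 1097, with DESeq2 614, 410 and 1148, and with only the 4 libraries of the lines compared 533 and 183 for the first pair of contrasts. Leaving out each library in turn gave 63 to 960, 34 to 646 and 179 to 1326 genes. Each left-out library moved the counts for shMLL1 against shControl and shMLL1 against shNFIB by over 1.5 times, and each but shControl at day 7 did so for shNFIB against shControl. The cause was not tested.

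For Ppargc1a the difference between shMLL1 and shControl turned to 0.36 without shControl at day 0 and to 0.57 without shMLL1 at day 7, in a range of -1.01 to 0.57 over the 6 libraries left out. Without shNFIB at day 7 Ppargc1a was called lower in shNFIB than in shControl cells (-2.78, adjusted p = 0.00670 in edgeR's quasi-likelihood test) and higher in shMLL1 than in shNFIB cells (2.61, adjusted p = 0.00590). Without shMLL1 at day 7 the latter was 2.10 (adjusted p = 0.0475). For Ebf2 the difference between shMLL1 and shControl turned to 0.44 without shMLL1 at day 0, in a range of -1.02 to 0.44. For Slc36a2, which is not read as tested, the fitted difference between shMLL1 and shNFIB of -4.47 was -1.46 with DESeq2 and turned to 2.02 without shMLL1 at day 7, the library that held the single shMLL1 count, in a range of -6.37 to 2.02. Between pairs of libraries 16 calls were made on members in all. Scaling by library size alone moved the median log2 ratio of all genes from 0.04 to 0.25 for the day in shMLL1 and from 0.00 to 0.22 for shMLL1 against shNFIB at day 7, and ratios of Ppargc1a there from 1.21 to 1.41 and from 0.09 to 0.30.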
